A study of Mus musculus with 6 samples.

Results

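Chondroitin sulfate and hyaluronan are long sugar chains of the pericellular matrix, and the 10 genes described here encode enzymes that build them. The members were Xylt1, Xylt2, Csgalnact1, Csgalnact2, Chsy1, Chst11, Chst15, Has1, Has2 and Has3, chosen by gene symbol in the authors' deposited table. All 10 were measured, among 22311 genes in all, and each had 1 probe set, so the rule of taking the probe set with the highest mean changed nothing for them. The members were chosen with earlier results of these data known, among them a ploidy difference of Csgalnact1.

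Chondroitin sulfate is built in the Golgi apparatus on a serine of a core protein. A xylosyltransferase starts a short linkage sugar, an N-acetylgalactosaminyltransferase commits the chain to chondroitin rather than heparan sulfate, polymerases extend it, and sulfotransferases decorate it. Hyaluronan, in contrast, is made at the plasma membrane by a single synthase, carries no sulfate and has no core protein, and marrow stromal cells are known to surround themselves with both kinds of chain.

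The RNA came from 6 cultures of mesenchymal stromal cells (MSCs) of mouse bone marrow, adherent cells with the capacity to become bone, fat or cartilage, and each was run on 1 Affymetrix array. The 3 tetraploid cultures were a primary culture (tetraploid I), a cell line (tetraploid II) and a clone made tetraploid artificially (tetraploid III). The 3 diploid cultures were a clone (diploid I) and 2 primary cultures (diploid II and III). All were extracted from bone marrow and grown in the same kind of stem cell medium. Ploidy had been determined from DNA stained with propidium iodide in a cytometer and checked by spectral karyotyping (SKY). The labels give no strain, age, passage or animal of origin. The p-values therefore set a difference against the spread between these samples, which mix primary cultures, a line and clones. A line or clone stands for the cells it was grown from and not for an animal.

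Values are log2 expression per probe set after RMA, a method that corrects background and normalises arrays against each other, so a difference of 1 is 2-fold. Array medians lay between 4.54 and 4.78, and a value near them is close to the lower end of what the array resolves. Of 12 stromal marker genes, 7 lay above the array median on all 6 arrays, and Lepr, a marker of stromal cells in the marrow, lay at 3.42 to 4.07 on all of them. Thy1 was at 3.96 and Eng at 3.80 in tetraploid II, and Nt5e was at 3.90 to 4.14 in tetraploid I, tetraploid II and diploid III, so these MSC surface markers were near the lower end of the scale there. Of 8 chondrocyte marker genes, 3 lay above the array median on all 6 arrays and 5 at or below it on all. The 3 were Sox9 (5.95 to 7.59), Col11a1 (5.43 to 8.45) and Col2a1 (4.76 to 5.33). Aggrecan (Acan), the cartilage proteoglycan core protein, was among the other 5, at 3.46 to 3.66 throughout. 2 libraries stood apart. On tetraploid II alone the Y-linked gene Ddx3y was seen (9.80, against 3.88 to 4.23) and Xist was not (3.68, against 9.71 to 11.04), and this array had the highest values of 2 of the 8 myeloid markers, Cd68 (7.97) and Lyz2 (7.0), while Cd14, another of them, was lowest there (4.79) and highest in diploid III (7.46), and Itgam (3.52), Adgre1 (3.61) and Fcgr3 (3.85) lay near the lower end of the scale. Of the 8, 5 were at or below the array median on all arrays. Diploid III had Cdh5 at 11.03 and Flt1 at 7.32, which are endothelial genes at 3.70 to 3.79 and 3.89 to 4.45 on the other arrays, and its interquartile range was 2.75, against 3.16 to 3.24. The mean of the 10 endothelial markers ranged over 3.74 to 3.83 with tetraploidy and over 3.71 to 5.12 with diploidy, with 7 of the 10 at or below the array median on all arrays. The mean of the 8 myeloid markers ranged over 4.04 to 4.82 with tetraploidy and over 3.94 to 4.52 with diploidy, and the pan-leukocyte gene Ptprc lay at 3.72 to 4.25. Member differences are given with and without these 2 arrays. In bulk samples, fewer cells of a type and less RNA per cell cannot be told apart.

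**Figure D1:**
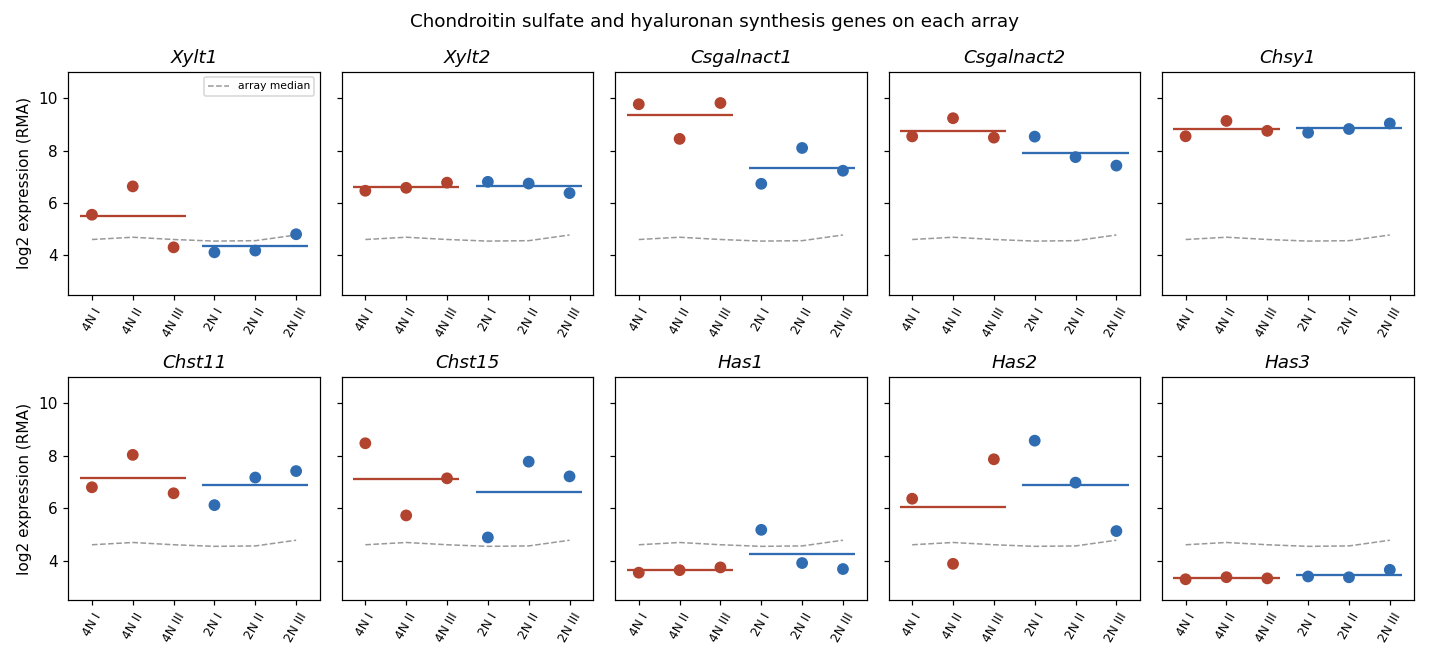
Log2 expression of the 10 genes on each of the 6 arrays (4N, tetraploid, red; 2N, diploid, blue), with the group means as horizontal lines and the median of each array as a dashed line. Csgalnact1 is the 1 gene whose tetraploid values (8.44 to 9.81) all lie above the diploid values (6.73 to 8.10), while Has2 spans 3.88 to 8.58 with both groups mixed.

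The first step, xylose on the core protein, is shared by chondroitin and heparan sulfate and has a pair of enzymes. Xylt1 had 5.55, 6.63 and 4.31 in tetraploid I, II and III, and 4.12, 4.18 and 4.81 in diploid I, II and III. It stood clear of the array median in tetraploid I and II, and tetraploid III lay among the diploid values, so the groups overlapped. The means were 5.50 ± 1.16 and 4.37 ± 0.38 (SD, n = 3 each), a log2 difference of 1.13 (SE 0.61, limma adjusted p = 0.870). Single tetraploid cultures set its size: without tetraploid III the difference was 1.72 (limma, unadjusted p = 0.0105, adjusted p = 0.442), without tetraploid II it was 0.56, and without both tetraploid II and diploid III it was 0.78. Xylt2 had 6.46, 6.58 and 6.77 in the tetraploid cultures and 6.80, 6.74 and 6.37 in the diploid cultures. These values were steady, spanning 0.43 over all 6 arrays, and the groups overlapped, with a log2 difference of -0.035 (95% interval -0.43 to 0.36), or -0.15 without both tetraploid II and diploid III.

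The committing step showed the largest difference between the ploidy groups among the 10 genes. Csgalnact1, which adds the N-acetylgalactosamine that opens a chondroitin chain, had 9.76, 8.44 and 9.81 in tetraploid I, II and III, and 6.73, 8.10 and 7.23 in diploid I, II and III. Every tetraploid value lay above every diploid value, with tetraploid II and diploid II close to each other. The means were 9.34 ± 0.78 and 7.35 ± 0.69 (SD, n = 3 each), which is 3.97-fold. This difference was part of what was known when the genes were chosen, so it is given as a description: the log2 difference was 1.99 (SE 0.52, 95% interval 0.70 to 3.28), and over all genes its adjusted p was 0.870 (limma, Benjamini-Hochberg). It lay between 1.68 and 2.44 when each culture was left out in turn, and was 2.38 without both tetraploid II and diploid III. In the authors' deposited table its fold, diploid over tetraploid, was -3.97, the same size with the sign of the opposite direction.

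Csgalnact2, the second enzyme of this step, had 8.54, 9.23 and 8.49 in the tetraploid cultures and 8.53, 7.75 and 7.42 in the diploid cultures. Diploid I lay within the tetraploid range, and the other diploid cultures lay below it. The means were 8.75 ± 0.41 and 7.90 ± 0.57 (SD, n = 3 each), with a log2 difference of 0.85 (SE 0.35, limma adjusted p = 0.870, 95% interval -0.030 to 1.74). Tetraploid II had the highest value of Csgalnact2 and the lowest of the tetraploid values of Csgalnact1. Without both tetraploid II and diploid III the Csgalnact2 difference was 0.38.

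Of the genes of chain growth, Chsy1 was steady across the cultures. Chsy1, which encodes a chondroitin synthase that extends the chain, had 8.54, 9.13 and 8.75 in the tetraploid cultures and 8.68, 8.82 and 9.03 in the diploid cultures. It was well above the array median everywhere and spanned 0.59, and the groups overlapped over most of their range. Its log2 difference was -0.036 (SE 0.19, limma adjusted p = 0.965), and the 95% interval of -0.50 to 0.43 excluded a 2-fold difference in either direction. Without both tetraploid II and diploid III the Chsy1 difference was -0.10.

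The sulfotransferases varied widely between cultures of one ploidy, and their 95% intervals were too wide to settle a ploidy difference. Chst11, which sulfates the N-acetylgalactosamine of chondroitin, had 6.80, 8.03 and 6.57 in the tetraploid cultures and 6.12, 7.17 and 7.42 in the diploid cultures. The cell line tetraploid II was highest and the clone diploid I lowest, and the groups overlapped. The log2 difference of Chst11 was 0.23 (SE 0.52, limma adjusted p = 0.920, 95% interval -1.07 to 1.53). Without tetraploid II the sign turned to -0.22, and without diploid I to -0.16, and without both tetraploid II and diploid III the Chst11 difference was 0.040. Chst15, which adds a further sulfate to an already sulfated residue and so makes the highly sulfated form called chondroitin sulfate E, had 8.48, 5.72 and 7.14 in the tetraploid cultures and 4.88, 7.77 and 7.21 in the diploid cultures. Tetraploid I was highest, diploid I was lowest and close to the array median, and the groups overlapped across nearly their whole range. Its log2 difference was 0.49 (SE 1.01, limma adjusted p = 0.915, 95% interval -2.05 to 3.02). Without diploid I it was -0.38, without tetraploid I -0.19, and without both tetraploid II and diploid III 1.48. Diploid I had the lowest value of Xylt1, Csgalnact1, Chst11 and Chst15 alike.

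The promoter windows of 3 members are shown because they belong to the steadiest (Xylt2) and the most variable (Chst15) of the 6 members with a window in the RefSeq table (GRCm38.p6), and to the hyaluronan synthase gene Has1, which lay below the median of 5 arrays. Each runs 5′ to 3′ from 250 bases before to 50 after an annotated gene start on the minus strand, at chr11:94677444-94677743, chr7:132317179-132317478 and chr17:17855139-17855438. Capitals mark the GC box letters GGGCGG or their reverse complement CCGCCC.
Xylt2: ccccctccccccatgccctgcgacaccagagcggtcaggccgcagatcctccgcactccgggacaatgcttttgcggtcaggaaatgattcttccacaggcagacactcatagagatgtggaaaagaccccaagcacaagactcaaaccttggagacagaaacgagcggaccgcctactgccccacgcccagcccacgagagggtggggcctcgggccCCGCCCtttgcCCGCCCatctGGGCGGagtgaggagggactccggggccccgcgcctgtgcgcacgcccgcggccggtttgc
Chst15: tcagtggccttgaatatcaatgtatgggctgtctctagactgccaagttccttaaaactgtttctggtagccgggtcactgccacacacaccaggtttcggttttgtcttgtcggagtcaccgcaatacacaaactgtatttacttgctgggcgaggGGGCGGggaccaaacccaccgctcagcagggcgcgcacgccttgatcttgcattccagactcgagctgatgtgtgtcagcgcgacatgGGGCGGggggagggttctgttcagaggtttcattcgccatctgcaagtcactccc
Has1: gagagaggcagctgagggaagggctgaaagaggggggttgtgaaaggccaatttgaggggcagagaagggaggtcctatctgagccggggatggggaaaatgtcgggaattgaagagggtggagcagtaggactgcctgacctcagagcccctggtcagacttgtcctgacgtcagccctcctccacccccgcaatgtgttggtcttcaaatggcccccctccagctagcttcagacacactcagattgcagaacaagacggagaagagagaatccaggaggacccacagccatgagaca
GC box letters occurred 3 times in the Xylt2 window, 2 times in the printed Chst15 window and 0 times in the Has1 window. Of 32851 windows of the same length, 35.7% hold at least 1. The printed windows held 23, 15 and 5 CpG dinucleotides, with a median of 7 over all windows. Another Chst15 window, of a different annotated start, held 2 matches and 24 CpG dinucleotides. It lay at chr7:132316977-132317276 and overlaps the printed window, so a match in the shared stretch is counted in both. The TATA box letters TATAAA, searched on both strands like the GC box, were in none of the 8 windows of the 6 members and in 13.6% of all windows. Steady and variable members alike had the GC box letters, since Chsy1 also held 2 matches and Chst11 held 3. For Csgalnact2, 1 window held 4 matches and the other held 0. These matches describe the letters of one window per start and say nothing of binding.

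The hyaluronan synthases differed in whether they were seen at all. Has3 had 3.29, 3.37 and 3.32 in the tetraploid cultures and 3.39, 3.36 and 3.65 in the diploid cultures, below the lower quartile of every array. Has1 had 3.54, 3.63 and 3.74 in the tetraploid cultures and 5.17, 3.91 and 3.68 in the diploid cultures. The clone diploid I was the 1 culture with Has1 above its array median, and the Has1 groups overlapped, with a log2 difference of -0.61 (SE 0.41, limma adjusted p = 0.870) that was -0.15 without diploid I and -0.90 without both tetraploid II and diploid III. For Has3 the log2 difference was -0.14 (SE 0.11, limma adjusted p = 0.870), a value of little weight at this level, and -0.074 without both tetraploid II and diploid III.

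Has2, the synthase on which the mouse embryo is known to depend, had the widest spread of the 10 genes. Its values were 6.36, 3.88 and 7.87 in tetraploid I, II and III, and 8.58, 6.97 and 5.13 in diploid I, II and III. Diploid I and the artificial tetraploid clone III were high, tetraploid II was below its array median, and the groups overlapped throughout. The means were 6.03 ± 2.01 and 6.89 ± 1.73 (SD, n = 3 each), with a log2 difference of -0.86 (SE 1.30, limma adjusted p = 0.890, 95% interval -4.12 to 2.40), and without tetraploid II the sign turned to 0.22. Has2 was lowest in the 2 arrays that stood apart, and without both of them its difference was -0.66, with tetraploid values of 6.36 and 7.87 against 8.58 and 6.97. The part of the Y-linked, myeloid or endothelial markers of those arrays in the Has2 values was not tested.

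**Figure D2:**
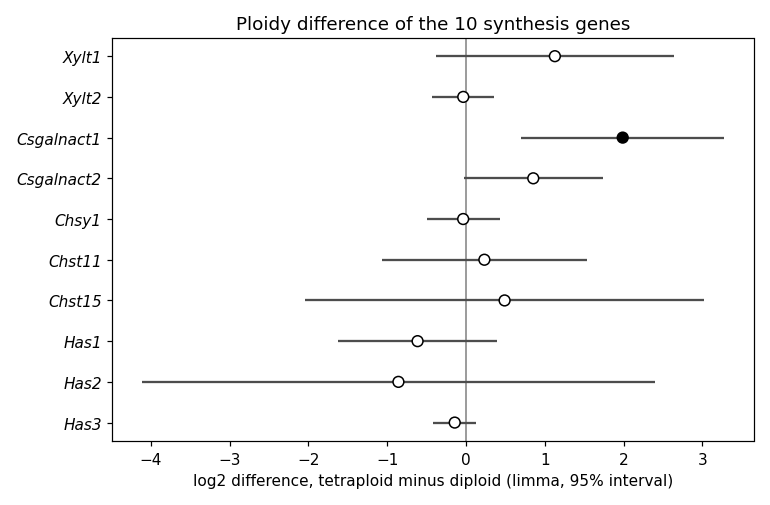
Log2 difference, tetraploid minus diploid, of each gene with its 95% interval from limma, over 3 arrays a group. The filled point, Csgalnact1 at 1.99, marks the gene whose groups do not overlap, and the intervals of Has2 and Chst15 are the widest.

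The mean was higher in the tetraploid samples for 5 of the 10 members, as for 39.1% of all 22311 genes. At an unadjusted p under 0.05, 1 of the 10 members was higher in the tetraploid samples, Csgalnact1, and 0 were lower, where 2.92% of all genes were called higher, 2.11% lower and 5.02% either way. The 2 groups did not overlap for 1 of 10 members, again Csgalnact1, where 4.82% of all genes lay wholly higher and 7.2% wholly lower, 12% in all. At 2-fold or more, Csgalnact1 and Xylt1 were higher and 0 were lower, against 2.1% and 1.6% of all genes. Because Csgalnact1 was known when the genes were chosen, nothing is read from these counts. After adjustment over all genes, 0 members and 0 of 22311 genes passed (limma, Benjamini-Hochberg, smallest adjusted p = 0.870, with 1121 genes at an unadjusted p under 0.05). The ordinary linear model also called 0, with 939 unadjusted.

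The spread of each member across cultures was set against that of all genes. Of the 22311 genes, 11100 had a mean above 4.71, and genes near the lower end can span little, as Bcan did (0.077, percentile 0.32). A high percentile thus partly reflects being seen at all, and no ranking among genes of similar level was made. Has2 spanned 4.70 on the log2 scale over the 6 arrays, which placed it at percentile 99.0 of all genes by range. Chst15 spanned 3.59 (percentile 97.6), Csgalnact1 3.08 (96.5), Xylt1 2.51 (94.3), Chst11 1.92 (89.6), Csgalnact2 1.81 (88.4) and Has1 1.63 (85.9). The span of Has1 came from diploid I, the only culture with Has1 above its array median. Chsy1, at percentile 48.0, and Xylt2, at percentile 35.3, were steady although both were above the median of every array, whereas Has3, at percentile 28.2, was steady at the lower end of the scale. For the wide members, the difference between cultures of one ploidy was as large as that between the ploidy groups, except for Csgalnact1. Its ploidy difference was known when the genes were chosen, so nothing is read from this exception.

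Whether paired enzymes moved unequally was asked with the log2 ratio of their probe sets on each array. This ratio shows unequal change and not which gene is more abundant. Chst11 and Chst15 are both sulfotransferases but do not carry out the same step. The ratio of Csgalnact1 over Csgalnact2 was 1.23, -0.79 and 1.32 in the tetraploid cultures and -1.80, 0.35 and -0.20 in the diploid cultures. Tetraploid II lay within the diploid range, and the groups differed by 1.14 (exact two-sided permutation p = 0.3, adjusted p = 0.75 over 5 pairs). Since the Csgalnact1 difference was known when the genes were chosen, this ratio is given as a description. The difference in this ratio was 0.51 without diploid I, 1.82 without tetraploid II and 2.00 without both tetraploid II and diploid III. Xylt1 over Xylt2 was -0.91, 0.055 and -2.47 in the tetraploid cultures and -2.69, -2.56 and -1.57 in the diploid cultures. Tetraploid I and II lay above the diploid range and tetraploid III within it, and the groups differed by 1.16 (exact permutation p = 0.2, adjusted p = 0.75), by 0.58 without tetraploid II and by 1.84 without tetraploid III. Chst11 over Chst15 ran from -1.68 in tetraploid I to 2.31 in tetraploid II, both cultures of the same ploidy, and the ploidy means differed by -0.26 (exact permutation p = 1). Has2 over Has3 differed by -0.71 (exact permutation p = 0.6) and Has1 over Has2 by 0.24 (exact permutation p = 0.8). Has3 lay below the lower quartile of every array and Has1 above its array median only in diploid I, so these ratios mostly followed Has2. With 3 samples against 3 this test cannot give a p under 0.1.

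**Figure D3:**
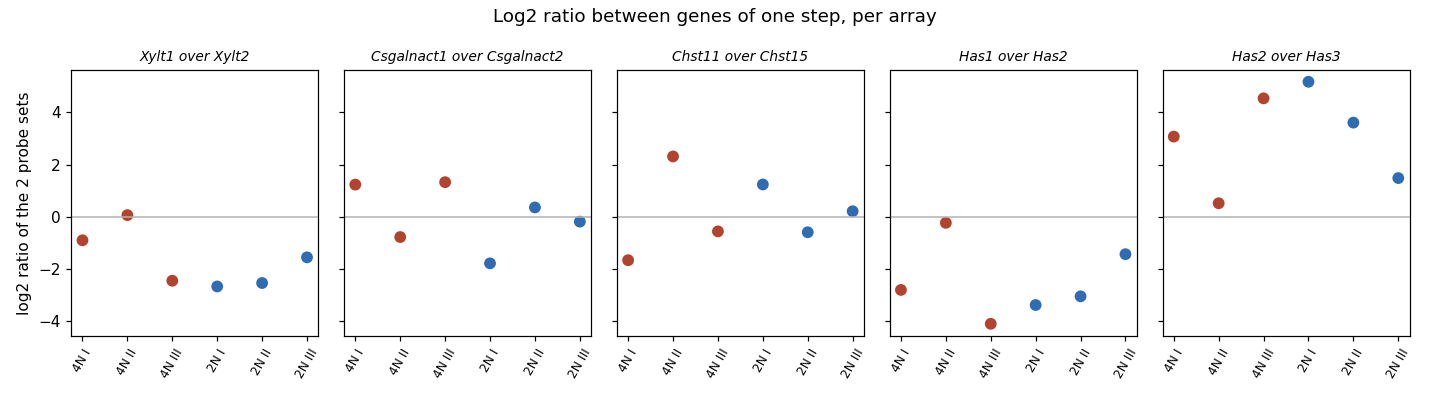
Log2 ratio between the 2 probe sets of each pair on each array (4N, tetraploid, red; 2N, diploid, blue). The ratio of Chst11 over Chst15 runs from -1.68 to 2.31 within the tetraploid cultures alone, and no pair separates the ploidy groups.

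Origin was partly mixed with ploidy, so the ploidy difference was also computed within primary cultures (tetraploid I against diploid II and III) and among lines and clones (diploid I against tetraploid II and III). Csgalnact1 was higher by 2.10 among primary cultures and by 2.40 among lines and clones, a sign that its separated groups fix in advance. Xylt1 was higher by 1.06 and 1.35, and Chst15 by 0.98 and 1.55. Csgalnact2 was higher by 0.95 and 0.33. Has2 was at 0.31 among primary cultures and -2.70 among lines and clones, where the high value of diploid I was the single diploid reference. Has1 was at -0.25 and -1.49, also against diploid I. Chst11 and Chsy1 went opposite ways in the separate origins in every sample, 2 of 10 members, where 15.8% of all genes did so. Among the members the smallest p for a difference between the origins was that of Has1 (limma, unadjusted p = 0.0158, adjusted p = 0.9999), and 0 of 22311 genes passed after adjustment (smallest adjusted p = 0.718, with 633 at an unadjusted p under 0.05). Each test of a difference between origins rests on 2 lone samples, tetraploid I and diploid I, assumed to vary like the others.

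The other genes of these pathways came from 8 lists, with 107 genes in all. Their counts stand beside a background in which the tetraploid mean was higher for 39.1% of all genes, and 2.92% were higher and 2.11% lower at an unadjusted p under 0.05. Among 5 other enzymes of the linkage region, the tetraploid mean was higher for 3 and lower for 2, with a median log2 difference of 0.048, where the median of all genes was -0.048. Fam20b, the kinase that phosphorylates the linkage xylose, had 8.58, 8.60 and 8.32 in the tetraploid cultures and 8.05, 8.21 and 7.99 in the diploid cultures, which did not overlap, with a log2 difference of 0.42 (SE 0.12, limma, unadjusted p = 0.0163, adjusted p = 0.870). B3gat3 differed by 0.32 (SE 0.27) and B4galt7 by -0.14 (SE 0.25), both glycosyltransferases of the linkage. Pxylp1, the phosphatase that removes the xylose phosphate, ran from 3.98 in diploid I to 7.90 in diploid III and differed by -0.27 (SE 1.04).

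Of the 3 other polymerization genes, Chpf and Chpf2, partners of the chondroitin synthases, differed by 0.54 (SE 0.22) and 0.28 (SE 0.45), and Chsy3 lay at 3.39 to 3.59 on every array, with a difference of -0.077 (SE 0.090). Unlike Chsy1, Chpf spanned 1.04 (percentile 70.4 of all genes by range) and Chpf2 spanned 1.42 (percentile 81.6). The 8 other sulfotransferases and epimerases had a median of 0.29, with 6 higher and 2 lower. That median was 0.096 without tetraploid II and 0.051 without both tetraploid II and diploid III. Dse, the epimerase that turns chondroitin into dermatan sulfate, had 10.15, 10.02 and 10.10 in the tetraploid cultures and 9.74, 9.58 and 8.70 in the diploid cultures. The groups did not overlap, and the log2 difference of Dse was 0.75 (SE 0.29, limma, unadjusted p = 0.0422, adjusted p = 0.870). Chst12, another chondroitin sulfotransferase gene, differed by 0.64 (SE 0.36), Dsel, a second epimerase gene, by 0.54 (SE 0.32) and Ust, a uronyl sulfotransferase gene, by 0.50 (SE 0.43).

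Heparan sulfate uses the same linkage and competes for it. Of 23 genes of its synthesis and remodelling, the tetraploid mean was higher for 6 and lower for 17, where it was higher for 39.1% of all genes, with a median of -0.16 and 0 at an unadjusted p under 0.05. Extl2 differed by 0.24 (SE 0.12), Ndst1 by -0.66 (SE 0.34), Ndst2 by 0.33 (SE 0.19) and Ndst3 by -0.85 (SE 0.49). The Ndst genes encode enzymes that deacetylate and sulfate the chain. For Ndst3 the high value was that of diploid III (5.83, against 3.79 to 4.25). Ndst4 (3.41 to 3.82), Hs6st3, Hs3st2, Hs3st5 and Hs3st6, on the lower side, and Extl1, on the higher side, lay below every array median. Ndst3, Hs3st1 and Hs3st3a1, also on the lower side, lay above the median on only 1 array. Part of the count by direction thus rests on values near the lower end of the scale. There diploid III read higher, with a lower quartile of 4.02 against 3.82 to 3.84. Without both tetraploid II and diploid III the list median was -0.063.

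Donor supply for the chains had a median of 0.17 over 18 genes, with 13 higher and 5 lower, against 39.1% of all genes higher. Of these, 2 higher and 0 lower genes had an unadjusted p under 0.05, against 2.92% and 2.11% of all genes. Ugdh, which makes the UDP-glucuronic acid that both chondroitin and hyaluronan need, had 11.10, 10.83 and 10.39 in the tetraploid cultures and 10.08, 10.36 and 10.14 in the diploid cultures. The groups just failed to overlap, and the log2 difference of Ugdh was 0.58 (SE 0.20, limma, unadjusted p = 0.0324, adjusted p = 0.870). Slc35b3, a Golgi transporter of the sulfate donor, differed by 0.28 (SE 0.087, limma, unadjusted p = 0.0207, adjusted p = 0.870), also without overlap. Slc26a2, the sulfate transporter of the cell membrane, differed by 0.92 (SE 0.45), with tetraploid II at 8.90 and the other tetraploid cultures at 7.32 and 7.39, against 6.86 to 7.03. Papss2, which makes the sulfate donor, differed by 0.59 (SE 0.26).

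Core proteins had a median of 0.032 over 15 genes, with 9 higher and 6 lower. Cspg5, at 3.62 to 3.98 and below every array median, differed by -0.24 (SE 0.091, limma, unadjusted p = 0.0431, adjusted p = 0.870). Tgfbr3, which encodes betaglycan, differed by 1.5 (SE 1.10) through diploid III (5.72, against 8.69 to 10.08). Cspg4 differed by 0.46 (SE 0.36) and Smc3, whose product is chiefly a cohesin subunit, by 0.35 (SE 0.18). Lysosomal breakdown genes had a median of 0.37 over 13 genes, with 11 higher and 2 lower and 1 at an unadjusted p under 0.05. That gene was Sgsh, a sulfamidase gene of heparan sulfate breakdown, with a log2 difference of 0.34 (SE 0.12, limma, unadjusted p = 0.0326, adjusted p = 0.870). Sumf1, the activator of sulfatases, differed by 0.51 (SE 0.21), Ids by 0.64 (SE 0.28) and Hgsnat by 0.41 (SE 0.22), both of them heparan sulfate breakdown genes. In the lysosomal list the array medians, as deviations from each gene's mean, were highest in tetraploid II at 0.55 and lay between -0.22 and 0.11 elsewhere, and without both tetraploid II and diploid III the list median was 0.11.

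**Figure D4:**
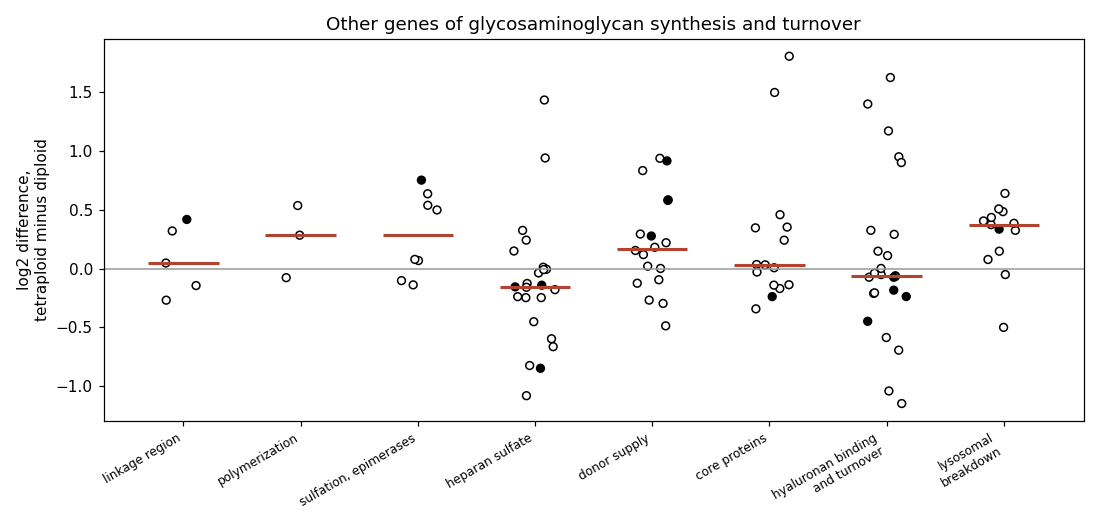
Log2 difference, tetraploid minus diploid, of each gene in the 8 pathway lists, with the list median as a red line. Filled points are genes whose groups do not overlap, and the medians run from -0.16 for heparan sulfate synthesis to 0.37 for lysosomal breakdown.

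Among 25 genes of hyaluronan binding and turnover, 10 were higher and 15 lower, where 39.1% of all genes were higher. The median was -0.061, with 0 genes at an unadjusted p under 0.05. Stab1, Hapln1, Hapln2, Hapln3, Itih1, Itih3, Hyal3 and Spam1, on the lower side, lay below every array median, as did Lyve1 and Stab2, on the higher side. Part of this count by direction thus also rests on values near the lower end of the scale. Itih5, at 3.97 to 4.88 and above its array median only in diploid II, differed by -0.45 (SE 0.21). Hyal2, a hyaluronidase gene, differed by -0.24 (SE 0.13). Hyal1, the lysosomal hyaluronidase gene, differed by 0.90 (SE 0.49) and Cemip2, a gene of cell surface hyaluronan degradation, by 1.40 (SE 0.79). Tnfaip6, Ptx3 and Cemip were picked out after their values were seen, for the way they followed the spread of Has2. Tnfaip6, whose product links protein chains to hyaluronan, was highest in diploid I (8.99), at 7.15 and 6.98 in diploid II and tetraploid III, at 6.21 in tetraploid I, and lowest in diploid III and tetraploid II (4.82 and 4.65). That order is the order of Has2 except that diploid II and tetraploid III change places. Cemip, whose product binds hyaluronan and promotes its breakdown, ran the other way. It was lowest in diploid I (6.23), at 7.66 and 8.05 in tetraploid III and diploid II, and highest in tetraploid I, tetraploid II and diploid III (10.38, 10.83 and 11.74). Ptx3, which encodes a protein of hyaluronan matrices, followed less closely. It was at 10.81 to 11.65 in diploid I, tetraploid III and diploid II, at 9.58 and 10.01 in tetraploid I and II, and at 4.26 in diploid III. None of these 3 genes separated the ploidy groups.

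**Figure D5:**
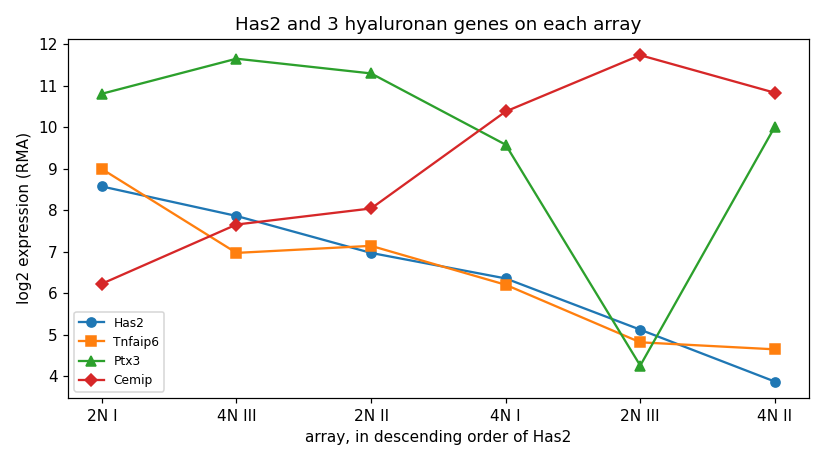
Log2 expression of Has2, Tnfaip6, Ptx3 and Cemip on the 6 arrays, ordered by descending Has2 (4N, tetraploid; 2N, diploid). Cemip is lowest (6.23) in diploid I, where Has2 is highest (8.58), and the heights of different genes are not comparable.

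The genes most like a member were found by the SD over the 6 arrays of their log2 ratio to it, among 6995 genes that spanned at least 1. For Csgalnact1 these 5 were Col12a1 (SD 0.39), a collagen gene, Pla2r1 (0.40), a phospholipase receptor gene, Ptgfr (0.42), a prostaglandin receptor gene, Tns3 (0.45), a tensin gene, and Mme (0.49), which encodes neprilysin. Col12a1 had 10.69, 10.38 and 10.93 in the tetraploid cultures and 8.33, 9.58 and 8.27 in the diploid cultures, with diploid II the highest diploid value as in Csgalnact1. For Has2 the nearest 5 were Cdca7l (SD 0.44), Htatip2 (0.49), Fez1 (0.53), Lif (0.55) and Atp8b1 (0.56). Lif, a cytokine gene, had 6.75, 4.24 and 7.70 in the tetraploid cultures and 8.99, 7.90 and 4.45 in the diploid cultures. With 6 arrays and this many genes some likeness of this size is always found, and it is given as a description.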

How the data were processed

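Biotin-labelled total RNA of 6 cultures was run on Affymetrix arrays, per the labels' protocols. The authors deposited log2 values per probe set. RMA and Partek, with no version, are named in the submitters' processing notes. The authors' deposited comparison table gave, per the file headers, a p-value and a fold (signed, 2N against 4N) for 35399 probe sets. On the log2 scale these folds matched the deposited values' differences to within 7.9e-05. Another 6 columns there, 1 per array, carried names found in no label and stayed out. The genome build behind the arrays is not given in the sources used here.

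Of the probe sets, 25917 had 1 symbol, 9482 had none and 0 had several. Symbols were updated through a RefSeq table of GRCm38.p6 (of 22349, 19017 were current, 2383 were matched as synonyms and 949 were kept). Each gene kept the probe set of highest mean, and 1988 of 22311 genes had several. The members and lists were chosen with earlier results of these data known. Tests used limma 3.58.1 in R 4.3.3 (lmFit, eBayes), as tetraploid minus diploid over the 6 arrays with neither covariate nor filter, two-sided, with Benjamini-Hochberg adjustment over all genes at a threshold of 0.05, and were tested on simulated data. Log2 ratios of enzyme pairs had an exact permutation test. Named genes were all members and up to 4 genes of each pathway list with the smallest unadjusted p. The 5 genes most like each of Csgalnact1 and Has2 were named as well. Tnfaip6, Ptx3, Cemip and the marker genes followed no fixed rule and were picked with their values in view. Krt19 (epithelial, range 4.37) and Actg2 (smooth muscle, range 6.09) had the widest range of their marker lists and are not described above. The number of arrays limits the precision. Alternatives covered normalisation, centring, a filter on dim probe sets, array weights, variance models, a block on repeat number, origin, the probe set rule and left-out cultures. Same-numbered cultures deviated from their group means with correlations of -0.12, -0.14 and -0.34, and the main fit used no pairing. With 3 cultures a group, of differing origin, these correlations cannot exclude that same-numbered cultures were handled together. Plots were made with matplotlib 3.10.9 (Python 3.11.15).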

Additional observations from a re-analysis of the deposited data

Results flagged for a closer look

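Of 51 genes (the members, the named list genes and those most like Csgalnact1 and Has2), 4 differed with ploidy in one direction among primary cultures and in the other among lines and clones, in every sample, a pattern that 15.8% of all genes show. For Chst11, the primary tetraploid culture (6.80) lay below both primary diploid cultures (7.17 and 7.42), and the tetraploid line and clone (8.03 and 6.57) lay above the diploid clone (6.12). The Chst11 ploidy differences were -0.49 and 1.18, which differ by -1.68 (SE 0.98, limma, adjusted p = 0.9999). For Chsy1 they were -0.38 and 0.26, which differ by -0.64 (SE 0.37, limma, adjusted p = 0.9999), at values of 8.54 against 8.82 and 9.03, and of 9.13 and 8.75 against 8.68. B4galt7, a linkage galactosyltransferase gene, had differences of -0.65 and 0.21, which differ by -0.87 (SE 0.41, limma, adjusted p = 0.9999). Chsy3 had 0.040 and -0.19, which differ by 0.23 (SE 0.25, limma, adjusted p = 0.9999), at values below the lower quartile of every array.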

How the results depend on the processing

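Over 16 alternatives the Csgalnact1 difference lay between 1.68 and 2.44. Its groups do not overlap and it was known when the genes were chosen, so its direction with a culture left out is fixed in advance and is no support. No member passed an adjusted p under 0.05 in any alternative (limma or the ordinary linear model, smallest 0.442). With the repeat number as a replicate block, 0 genes passed and 1190 had an unadjusted p under 0.05, and the block changed no call. The genes at an adjusted p under 0.05 numbered 0 to 1 when each culture was left out, with 1 without tetraploid III (Lgr5) and 1 without diploid II (H19), and 0 in the other alternatives. Those at an unadjusted p under 0.05 numbered 654 to 1676 with a culture left out, 1909 with array weights and 651 with dim probe sets removed, which leaves 11100 genes and drops Has1 and Has3. Members at an unadjusted p under 0.05 numbered 1 to 2 with a culture left out. They numbered 2 after quantile normalisation (Csgalnact2 joined), where 1248 of all 22311 genes were called. With origin as a covariate they numbered 3 (Chst15 and Has1 joined), where 1181 of all genes were called. Each of these counts includes Csgalnact1, known when the genes were chosen, so nothing is read from them. Centring the arrays turned Xylt2 to 0.0081 and Chsy1 to 0.0070, and array weights turned Chsy1 to 0.015. With a culture left out, Xylt2 ran from -0.17 to 0.048, Chsy1 from -0.20 to 0.096, Chst11 from -0.22 to 0.52, Chst15 from -0.38 to 1.18 and Has2 from -1.77 to 0.22. With a culture left out, the ratio differences ran from 0.51 to 1.82 for Csgalnact1 over Csgalnact2, from 0.58 to 1.84 for Xylt1 over Xylt2, from -1.40 to 0.59 for Chst11 over Chst15, from -0.83 to 1.11 for Has1 over Has2 and from -1.69 to 0.38 for Has2 over Has3, and without both tetraploid II and diploid III Has1 over Has2 was -0.24 and Csgalnact1 over Csgalnact2 was 2.00. List medians with a culture left out ran from -0.080 to 0.29 (linkage), from -0.061 to 0.53 (polymerization), from 0.096 to 0.37 (sulfotransferases), from -0.18 to -0.040 (heparan sulfate), from 0.16 to 0.22 (donor supply), from -0.016 to 0.13 (core proteins), from -0.099 to -0.038 (hyaluronan binding) and from 0.17 to 0.44 (lysosomal breakdown). Without both tetraploid II and diploid III they were 0.25 for linkage, 0.051 for sulfotransferases, -0.063 for heparan sulfate, 0.12 for donor supply, -0.094 for hyaluronan binding and 0.11 for lysosomal breakdown. After quantile normalisation donor supply was 0.099 and hyaluronan binding -0.010. The causes of these shifts were not tested. Quantile normalisation and centring of the origin comparison were added after seeing the data and also gave 0 genes. Each member has 1 probe set, so no other probe set could be tried. Values near the array medians, as for Has1, Has3 and some Xylt1 values, limit any difference to a rough size.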
